A study of Mus musculus with 16 samples.

Results

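Mitochondria carry their own ribosomes, the mitoribosomes, which translate the few mRNAs of the mitochondrial genome into subunits of the respiratory chain and the ATP synthase. Their RNAs come from the mitochondrial genome, but every protein of both subunits is encoded in the nucleus, made in the cytosol and imported. Genes named Mrpl were named for the large subunit, which joins amino acids and holds the exit tunnel, and genes named Mrps for the small subunit, which reads the mRNA. Neutrophil-like cells are known to rely largely on glycolysis and to hold few active mitochondria, whereas monocytic cells keep a fuller respiratory chain.

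The mitochondrial ribosomal protein genes were taken by name, as every gene symbol that starts with Mrpl or Mrps followed by a digit and is not marked as a pseudogene. This gave 77 genes of 24421 listed, 48 named for the large and 29 for the small subunit. They were followed in 16 libraries of sorted splenic myeloid-derived suppressor cells (MDSCs), the immature myeloid cells that accumulate in tumor-bearing hosts. Monocytic cells (M-MDSCs, sorted as Ly6C cells) and granulocytic cells (G-MDSCs, sorted as Ly6G cells) came from C57BL/6 wild type (WT) mice and from Nlrp3-/- mice, all bearing subcutaneous B16.F10 melanoma, with 4 mice per genotype and 1 mouse per RNA sample. Both subsets of a mouse number were sequenced, so the 4 groups were WT M-MDSCs, Nlrp3-/- M-MDSCs, WT G-MDSCs and Nlrp3-/- G-MDSCs, each n = 4. The tumor cells carried an intact Nlrp3 gene. The knockout, in which an EGFP cassette ending in a poly(A) signal was joined to the start codon of Nlrp3 in exon 2, affected every cell of the host, so a difference between genotypes may arise outside the sorted cells. The labels give no age.

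Nlrp3, which encodes the sensor of the NLRP3 inflammasome, followed the labels in every library. Its level ran from 40.6 to 88.7 CPM (counts scaled to a common library total) in WT M-MDSCs and from 0.513 to 1.87 CPM in Nlrp3-/- M-MDSCs. It ran from 251 to 330 CPM in WT G-MDSCs and from 5.5 to 13.6 CPM in Nlrp3-/- G-MDSCs. The summed level of 8 monocytic marker genes lay between 5679 and 8516 CPM in M-MDSCs and between 779 and 1547 CPM in G-MDSCs, and that of 8 granulocytic genes between 108835 and 165085 CPM in G-MDSCs and between 1297 and 7683 CPM in M-MDSCs. The highest of these M-MDSC values, 7683 CPM, was that of WT replicate 2, and the other 7 M-MDSC libraries did not exceed 2277 CPM. Libraries held 2295967 to 6079866 counts on genes, and the 77 genes took 0.232% to 0.357% of them in M-MDSCs and 0.0991% to 0.154% in G-MDSCs. All CPM values, those above included, are scaled by TMM (trimmed mean of M values) over the 16 libraries, since a few granule and S100 transcripts take a large share of a granulocytic library.

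The promoters of the mitochondrial ribosomal protein genes are described first, because most of these genes moved together between the subsets. RefSeq windows from 250 bases before to 50 bases after a gene's start were at hand for 68 of the 77 genes on build GRCm38.p6. Both strands were searched for 4 sequences, none of which holds another: CCGGAAG, the core bound by ETS factors such as GABPA, a known regulator of nuclear genes for mitochondria; the palindrome bound by NRF1; AAGATGG, bound by YY1; and GGGCGG, bound by SP1. A gene was counted when any of its windows held the sequence, and shares are of genes with a window. CCGGAAG was found in 25 of the 68 genes (36.8%), against 22.5% of the genes tested between the WT subsets and 9.93% of all genes. AAGATGG was found in 13 (19.1%), against 9.16% and 7.28%. The NRF1 palindrome was found in 3 (4.41%), against 2.58% and 1.07%. GGGCGG was found in 34 (50%), against 69.5% and 38.2%. These shares are descriptions of the letters in the windows and not of binding. Below are the 120 bases before the start of 6 genes, with matches to CCGGAAG or AAGATGG in capitals. The first pair are the genes that were higher in G-MDSCs. The other 4 were lower in WT G-MDSCs and were chosen, after their values were seen, because their windows hold CCGGAAG or its reverse complement. Their contrast with the first pair was set by that choice.
Mrpl33, chr5:31613831-31613950, plus strand: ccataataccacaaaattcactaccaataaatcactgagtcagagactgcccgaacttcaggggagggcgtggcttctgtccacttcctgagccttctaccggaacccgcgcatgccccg
Mrpl10, chr11:97041462-97041581, plus strand: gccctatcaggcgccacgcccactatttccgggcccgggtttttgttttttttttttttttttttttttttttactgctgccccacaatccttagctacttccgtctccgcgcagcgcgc
Mrpl22, chr11:58171544-58171663, plus strand: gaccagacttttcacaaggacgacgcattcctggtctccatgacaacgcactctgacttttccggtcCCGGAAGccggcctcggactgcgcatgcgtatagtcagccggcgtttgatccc
Mrpl27, chr11:94653671-94653790, plus strand: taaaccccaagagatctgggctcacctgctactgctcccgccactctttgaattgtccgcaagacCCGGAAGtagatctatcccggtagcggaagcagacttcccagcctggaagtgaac
Mrpl52, chr14:54426789-54426908, plus strand: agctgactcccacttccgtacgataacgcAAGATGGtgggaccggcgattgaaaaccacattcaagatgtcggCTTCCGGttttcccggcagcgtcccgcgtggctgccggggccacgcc
Mrps27, chr13:99344666-99344785, plus strand: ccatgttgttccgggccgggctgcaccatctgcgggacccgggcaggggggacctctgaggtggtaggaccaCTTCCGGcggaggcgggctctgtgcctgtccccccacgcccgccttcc
Among the 37 genes with a window that were lower in WT G-MDSCs, 12 (32.4%) held CCGGAAG, and among the 31 others 13 (41.9%) did.

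Most mitochondrial ribosomal protein genes were lower in G-MDSCs than in M-MDSCs of the same genotype. In WT mice 45 of the 74 genes that could be tested fell and 2 rose, where 27.1% of all 9739 tested genes were lower and 26.3% higher. In Nlrp3-/- mice 46 of 74 fell and 2 rose, where 27.4% of 10071 tested genes were lower and 23.7% higher. A gene was counted when its false discovery rate (FDR) in edgeR's quasi-likelihood test was under 0.05 and its fold change above 1.5. Over all 77 genes, tested or not, the median difference in log2 CPM between subsets was -1.0 in WT and -0.97 in Nlrp3-/- mice, beside -0.05 and 0.01 over all tested genes. In bulk RNA of sorted cells, fewer cells of a type and less RNA per cell cannot be told apart. Markers of other cells also differed between subsets: 4 B cell genes summed to 68.2 to 134 CPM in M-MDSCs and 171 to 288 CPM in G-MDSCs, and 5 primary granule genes to 60.8 to 305 and 1.86 to 11 CPM. Their part in the member values was not tested. Without WT M-MDSC replicate 2, which held the most granulocytic transcripts among M-MDSCs, 45 members still fell and 2 rose in WT.

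The fall was found in both subunits. In WT mice 29 of 48 large subunit genes and 16 of 26 tested small subunit genes fell, with median log2 CPM differences over all named genes of -1.09 and -0.95. In Nlrp3-/- mice 29 of 48 and 17 of 26 did, with medians of -0.95 and -1.05. The genes that fell were largely shared: 39 of them fell in both genotypes, 86.7% of the WT list and 84.8% of the Nlrp3-/- list, in libraries from different mice. The same overlap over all tested genes was not determined, so such sharing is not shown to be particular to these genes. Over the 74 genes tested in both genotypes the log2 fold changes correlated with Pearson's r = 0.77, a description across genes that share libraries and base composition. The 6 genes that fell in WT only were Mrpl9, Mrpl22, Mrpl39, Mrpl44, Mrps33 and Mrps35, and the 7 that fell in Nlrp3-/- only were Mrpl18, Mrpl49, Mrpl55, Mrpl57, Mrps14, Mrps16 and Mrps22. None of these 13 passed the test of the difference between genotypes given below.

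**Figure D1:**
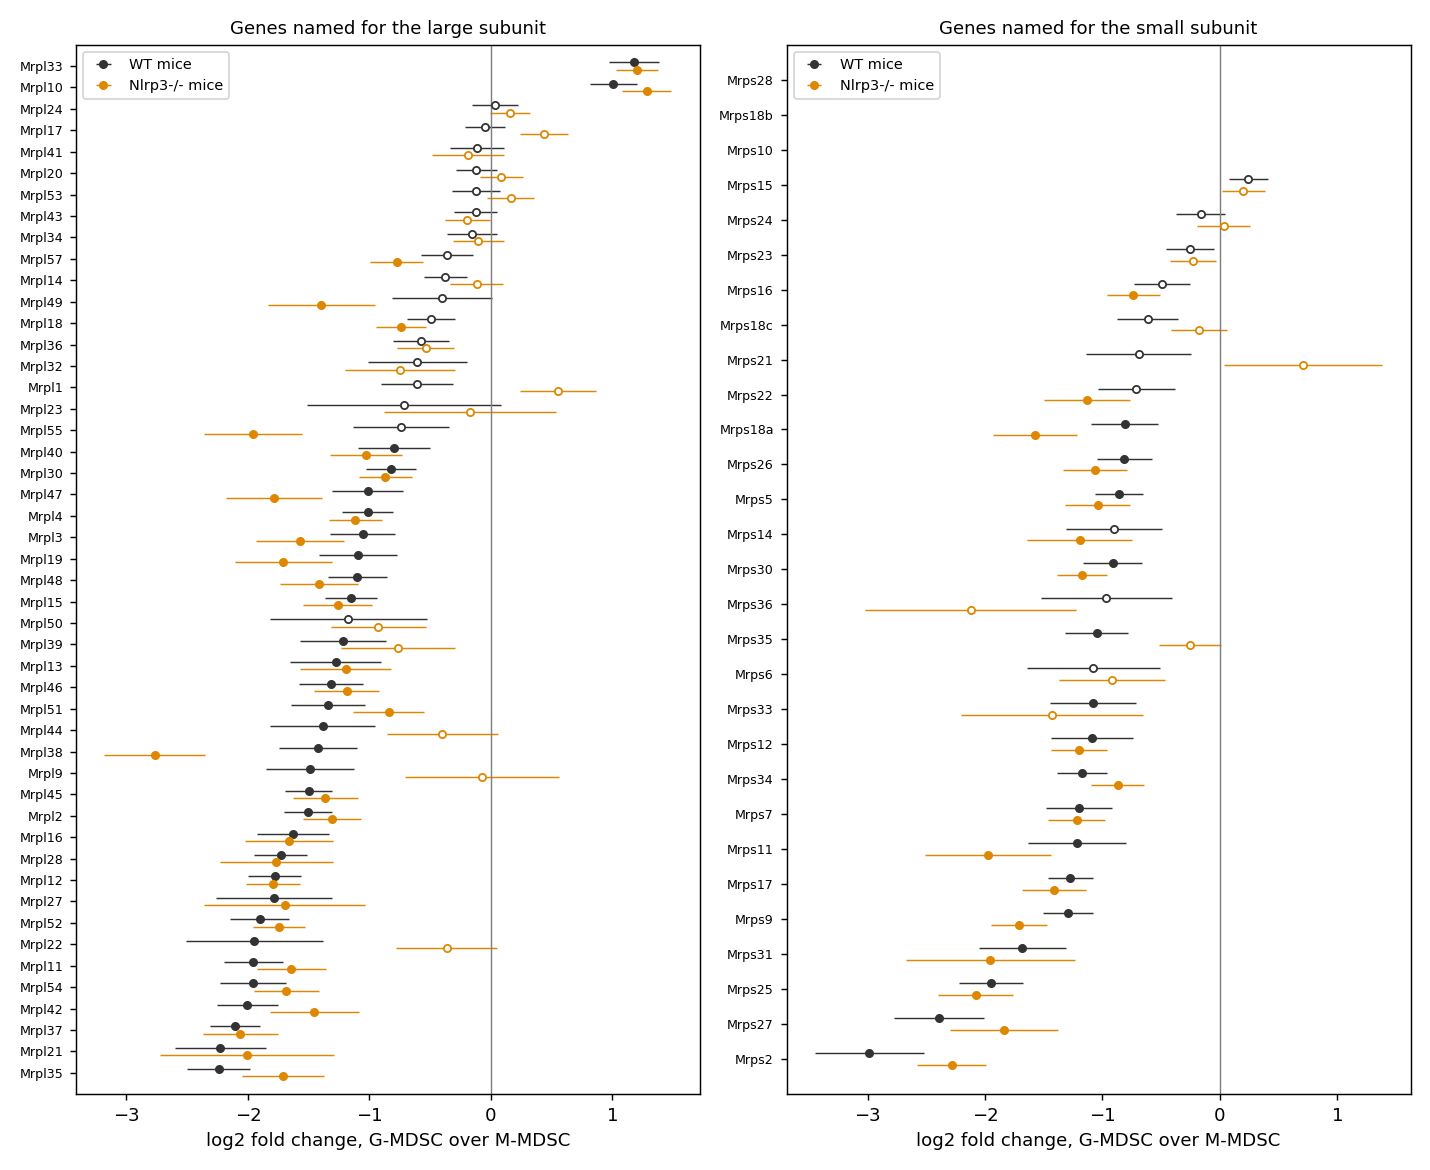
Log2 fold change of each gene in G-MDSCs over M-MDSCs (horizontal axis), in WT mice (dark) and Nlrp3-/- mice (orange), ordered by the WT value within each subunit. Bars are standard errors, filled points passed FDR and fold change, open points did not, and genes without a point could not be tested. Most points lie left of 0, and Mrpl33 and Mrpl10 are the filled points on the right.

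Between the WT subsets Mrpl37 had the smallest p value of all members. It encodes a protein with no bacterial counterpart. Its level was 46.0, 40.3, 39.5 and 41.0 CPM in WT M-MDSCs and 8.33, 10.8, 11.9 and 7.38 CPM in WT G-MDSCs. Every M-MDSC library was more than 3 times as high as the highest G-MDSC library. The log2 fold change was -2.10 ± 0.21 (SE), FDR = 4.5e-06. Mrpl37 in Nlrp3-/- mice was 37.2, 71.5, 85.1 and 49.1 CPM in M-MDSCs and 8.31, 15.3, 15.9 and 23.1 CPM in G-MDSCs, again without overlap (log2 fold change -2.06 ± 0.31, FDR = 6.8e-05).

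Mrpl35, a homologue of a bacterial large subunit protein, was 30.1, 25.8, 22.6 and 21.2 CPM in WT M-MDSCs and 4.33, 7.43, 4.36 and 5.05 CPM in WT G-MDSCs, with no overlap (log2 fold change -2.24 ± 0.26, FDR = 1.7e-05). Mrpl42, of mitochondrial type, fell by 2.01 ± 0.25 on the log2 scale, from a mean of 20.6 to 5.15 CPM (FDR = 3.3e-05). Mrpl28, of bacterial type, fell by 1.73 ± 0.22 on the log2 scale, from 27.5 to 8.27 CPM (FDR = 3.4e-05). All 3 genes in Nlrp3-/- mice were lower in G-MDSCs too, with log2 fold changes of -1.71, -1.45 and -1.77. Mrpl28 then ranged from 1.97 to 20.9 CPM in Nlrp3-/- G-MDSCs, all under the lowest Nlrp3-/- M-MDSC library at 24.9 CPM.

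The stalk of the large subunit, the arm that recruits elongation factors, was split. Its base is formed by Mrpl10 and Mrpl11, and Mrpl12 is the repeated protein that touches the factors. Mrpl12 fell from 48.4, 42.8, 46.8 and 42.4 CPM in WT M-MDSCs to 12.7, 18.2, 9.44 and 12.4 CPM in WT G-MDSCs (log2 fold change -1.78 ± 0.22, FDR = 2.7e-05). Mrpl11 fell from 26.0, 20.5, 24.4 and 23.3 CPM to 8.0, 6.08, 5.08 and 5.05 CPM (log2 fold change -1.95 ± 0.24, FDR = 2.7e-05). The subsets did not overlap in Mrpl12 or in Mrpl11.

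Mrpl10 went the other way. It was 16.7, 20.6, 23.1 and 22.2 CPM in WT M-MDSCs and 42.0, 31.8, 44.8 and 47.4 CPM in WT G-MDSCs, and 24.4, 22.0, 17.7 and 27.1 CPM against 66.2, 56.7, 55.5 and 63.9 CPM in Nlrp3-/- mice. Every G-MDSC library was above every M-MDSC library. The fold change was 2.01 in WT (log2 1.01 ± 0.19, FDR = 0.00086) and 2.44 in Nlrp3-/- mice (log2 1.29 ± 0.20, FDR = 0.00010). Of the other 2 stalk genes, Mrpl54 fell (log2 fold change -1.96 in WT and -1.68 in Nlrp3-/- mice) and Mrpl53 did not pass the test in either genotype (-0.12 and 0.16).

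Mrpl33, a small homologue of a bacterial large subunit protein, was the other gene that rose. Its level was 187, 152, 216 and 193 CPM in WT M-MDSCs and 473, 269, 504 and 442 CPM in WT G-MDSCs. Mrpl33 in Nlrp3-/- mice was 228, 187, 254 and 276 CPM in M-MDSCs and 593, 561, 493 and 708 CPM in G-MDSCs. The subsets did not overlap in either genotype. The fold change was 2.26 in WT (log2 1.18 ± 0.20, FDR = 0.00039) and 2.3 in Nlrp3-/- mice (log2 1.20 ± 0.17, FDR = 4.9e-05). The annotated Mrpl33 locus (chr5:31596935-31664384, plus strand, mm10) spans Rbks on the opposite strand, and reads were counted by strand. The rise of Mrpl33 and of Mrpl10 depended on scaling: with library size alone their log2 fold changes were 0.43 and 0.26 in WT and 0.48 and 0.56 in Nlrp3-/- mice, none past the test, while the median of all tested genes moved to -0.79 and -0.83.

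**Figure D2:**
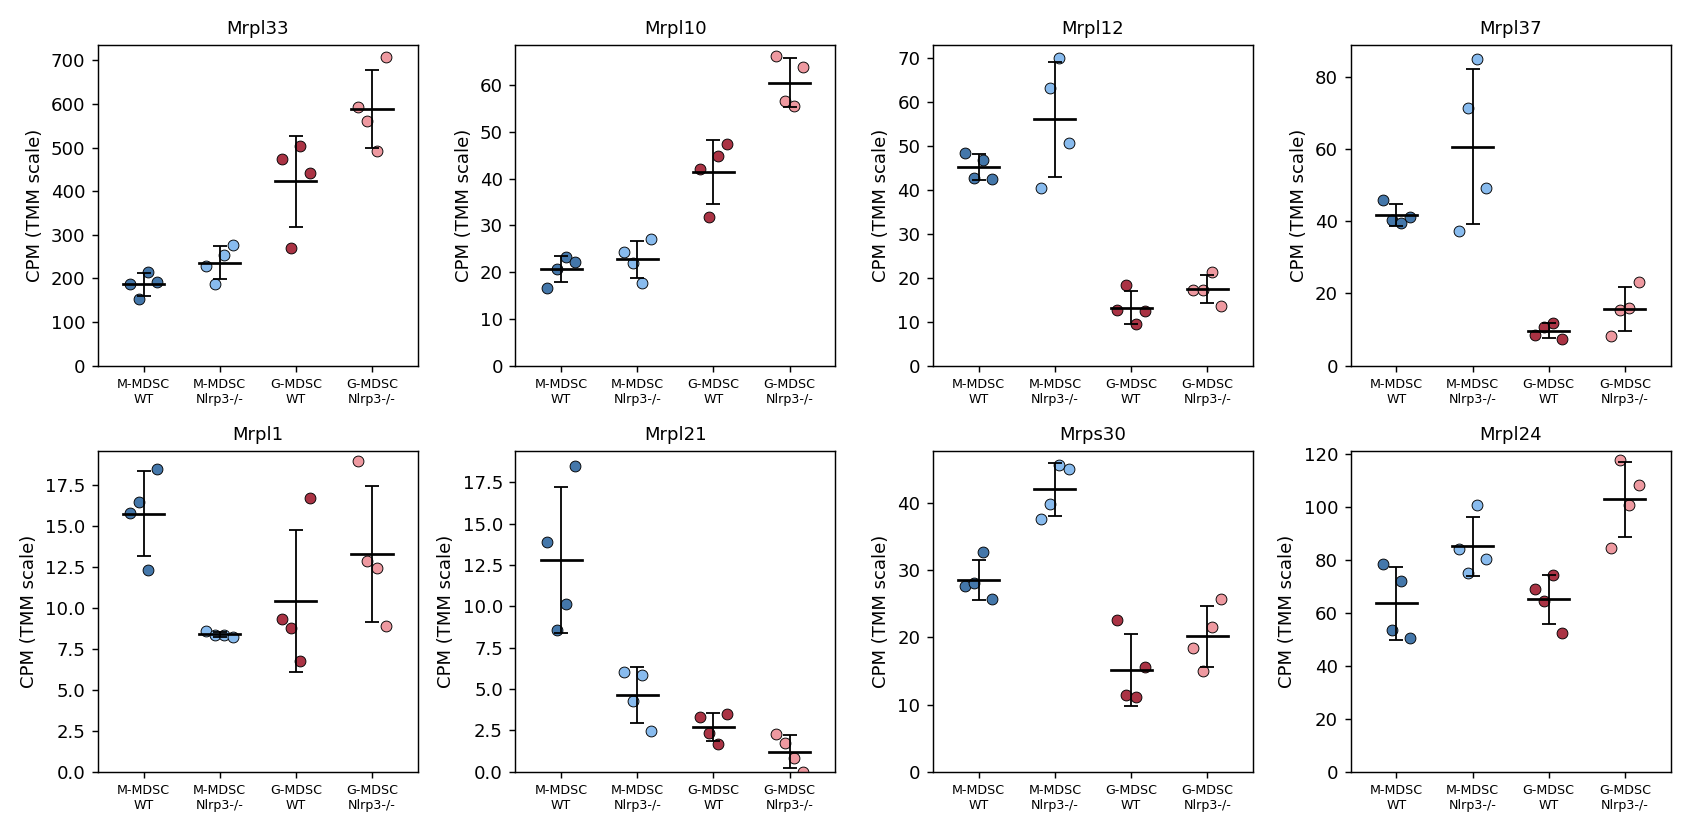
CPM (vertical axis, from 0) of 8 genes in the 4 groups. Each point is 1 library, and the line and bar are the mean ± SD (n = 4). Mrpl33 and Mrpl10 are higher in G-MDSCs, Mrpl12 and Mrpl37 lower, and Mrpl1 and Mrpl21 are lower in Nlrp3-/- than in WT M-MDSCs.

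Genes around the other working parts of the large subunit gave the following counts. All 5 genes beside the peptidyl transferase centre, where the peptide bond is made (Mrpl2, Mrpl3, Mrpl4, Mrpl16 and Mrpl27), fell in both genotypes, with a median log2 CPM difference of -1.44 in WT and -1.27 in Nlrp3-/- mice. Of the 5 genes of the central protuberance, 4 fell in WT and 5 in Nlrp3-/- mice. Of the 7 genes around the exit tunnel, 4 fell in WT and 2 in Nlrp3-/- mice, and Mrpl17, Mrpl23 and Mrpl24 did not pass in either. The median log2 CPM difference of these 7 was -1.34 in WT and 0.00072 in Nlrp3-/- mice, and the difference between genotypes passed for none of them. Mrpl45, which ties the mitoribosome to the inner membrane, fell from 32.8 ± 4.26 to 11.6 ± 0.754 CPM in WT (SD, n = 4, log2 fold change -1.50, FDR = 4.2e-05) and with a log2 fold change of -1.36 in Nlrp3-/- mice.

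In the small subunit Mrps2, a homologue of a bacterial protein at the junction of head and body, showed the largest fitted fall in WT among the members tested, and is described because of it. It was 15.0, 19.1, 15.3 and 18.8 CPM in WT M-MDSCs and 4.67, 1.35, 0.484 and 2.33 CPM in WT G-MDSCs, the lowest of which rests on 2 counts. The groups did not overlap (log2 fold change -2.98 ± 0.46, FDR = 0.00017). Mrps12, of the decoding centre, was 47.1, 26.7, 30.3 and 39.3 CPM in WT M-MDSCs and 27, 20.9, 7.5 and 12 CPM in WT G-MDSCs, a fall whose groups overlapped, since WT G-MDSC replicate 1 lay above WT M-MDSC replicate 2 (log2 fold change -1.09, FDR = 0.019). Without WT G-MDSC replicate 4 the FDR of Mrps12 was 0.056, and with fold changes corrected for GC and transcript length it also missed the threshold. Mrps7, of the head, fell from 19.7 to 8.50 CPM on average (log2 fold change -1.20, FDR = 0.0029). Mrps15 was not lower in G-MDSCs: it was 51.0 to 73.3 CPM in WT M-MDSCs and 66.1 to 79.3 CPM in WT G-MDSCs, which overlapped (log2 fold change 0.24, FDR = 0.23).

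Names and structure differ for a few genes. Mrps30 and Mrps18a carry small subunit names but their proteins are built into the large subunit. Both fell in WT G-MDSCs, with log2 fold changes of -0.91 (FDR = 0.0078) and -0.81 (FDR = 0.028), and in Nlrp3-/- G-MDSCs, with -1.18 and -1.57. The WT call of Mrps18a was lost when WT M-MDSC replicate 1 (FDR = 0.086) or any of WT G-MDSC replicates 1, 3 and 4 (FDR = 0.069, 0.076 and 0.051) was left out. Of its relatives that stay in the small subunit, Mrps18c did not pass the test (-0.62 in WT and -0.18 in Nlrp3-/- mice). Mrps18b had too few reads for any comparison, at 0.208 to 1.86 CPM in M-MDSCs and 0 counts in all 8 G-MDSC libraries. A count of 0 allows up to 1.17 CPM in the shallowest G-MDSC library for Mrps18b, taking 3 counts as the limit, which covers counting error only. Mrps36, whose product is known as a part of the oxoglutarate dehydrogenase complex, did not pass in either genotype. Mrps10 and Mrps28 could be tested in neither comparison of subsets.

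Genes with bacterial homologues and genes of mitochondrial type, which were added to the ribosome in the lineage of eukaryotes, both fell. Of 46 genes of bacterial type, 24 fell and 2 rose in WT and 26 fell and 2 rose in Nlrp3-/- mice (median log2 CPM difference -0.96 and -0.95). Of 30 genes of mitochondrial type, 21 and 20 fell and none rose (median -1.09 and -1.04). Mrpl33 and Mrpl10 are both of bacterial type. No test between these lists was made.

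**Figure D3:**
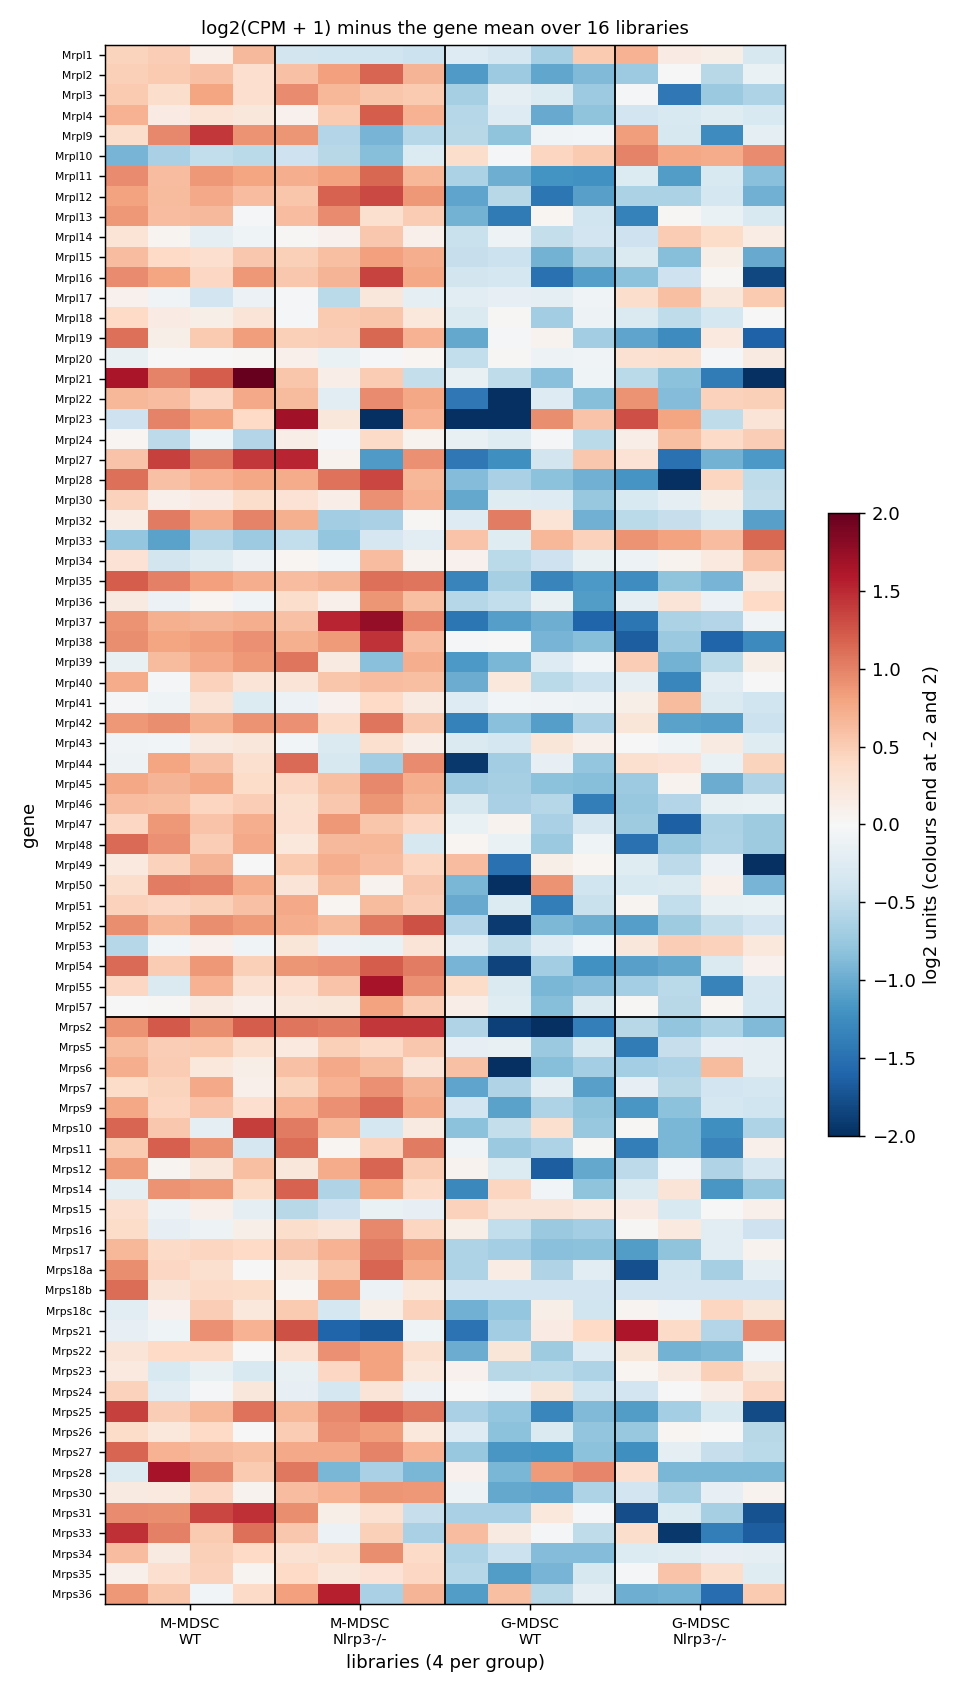
Log2(CPM + 1) of all 77 genes, large subunit above the line and small subunit below, minus the mean of the gene over the 16 libraries. Columns are libraries in 4 groups of 4, red is above and blue below the mean of the gene. The M-MDSC columns are mostly red and the G-MDSC columns mostly blue, with the reverse in Mrpl10 and Mrpl33.

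Summed over genes, Mrpl33 included, the 2 subunits did not change in proportion. The summed level of the small subunit genes was 676, 555, 609 and 565 CPM in WT M-MDSCs and 415, 355, 351 and 336 CPM in WT G-MDSCs, a difference of -39.5% without overlap. In Nlrp3-/- mice it was 608, 621, 780 and 646 CPM against 395, 408, 443 and 447 CPM, a difference of -36.2%, also without overlap. The large subunit sum was 1570, 1380, 1512 and 1463 CPM in WT M-MDSCs and 1209, 1017, 1268 and 1190 CPM in WT G-MDSCs, a difference of -20.9% without overlap. It was 1526, 1477, 1928 and 1693 CPM against 1508, 1519, 1482 and 1685 CPM in Nlrp3-/- mice, a difference of -6.50% with overlap.

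Mrpl33 carried much of this contrast. It made up 12.6% ± 1.4 (SD, n = 4) of the large subunit sum in WT M-MDSCs, 14.3% ± 1.7 in Nlrp3-/- M-MDSCs, 35.6% ± 6.2 in WT G-MDSCs and 37.9% ± 3.7 in Nlrp3-/- G-MDSCs. Without Mrpl33, a choice made after seeing the data, the large subunit sum was 1294 ± 65.1, 1420 ± 179, 749 ± 11.6 and 959 ± 32.5 CPM in these groups. The log2 ratio of G-MDSCs over M-MDSCs was then -0.79 in WT and -0.57 in Nlrp3-/- mice, against -0.34 and -0.10 with Mrpl33. For the small subunit sum this log2 ratio was -0.72 in WT and -0.65 in Nlrp3-/- mice, near the large subunit values without Mrpl33. With Mrpl33 included, the ratio of the large to the small subunit sum was 2.47 ± 0.11 and 2.50 ± 0.10 in WT and Nlrp3-/- M-MDSCs. In WT and Nlrp3-/- G-MDSCs that ratio was 3.24 ± 0.40 and 3.66 ± 0.21, with no overlap between subsets in either genotype.

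**Figure D4:**
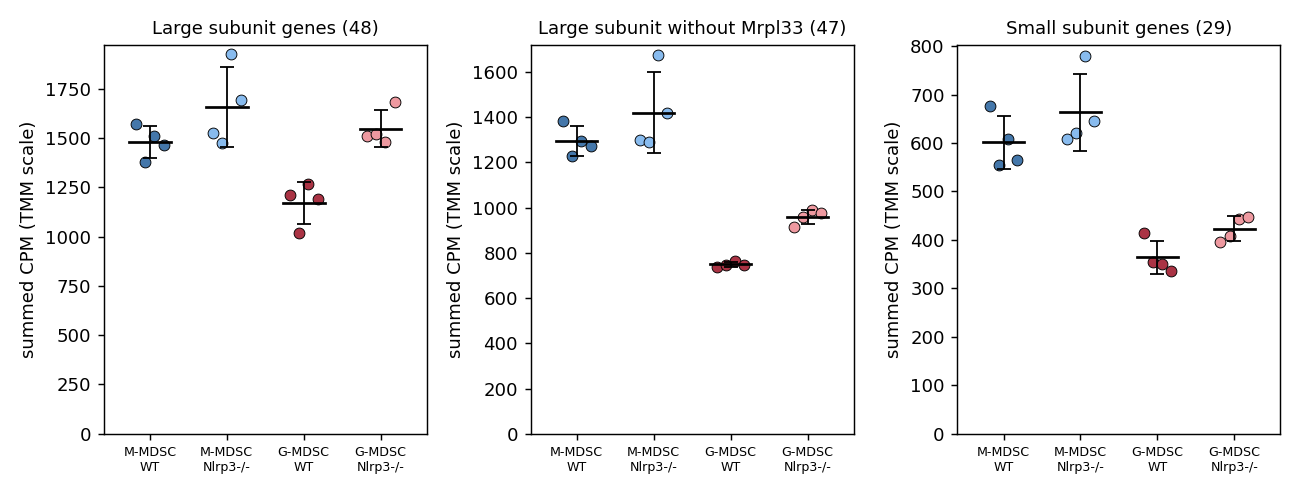
Summed CPM (vertical axis, from 0) of the large subunit genes, the same without Mrpl33, and the small subunit genes, in the 4 groups. Each point is 1 library, and the line and bar are the mean ± SD (n = 4). The small subunit sum and the large subunit sum without Mrpl33 are lower in G-MDSCs of both genotypes.

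Loss of Nlrp3 was followed by few differences in M-MDSCs. Of the 75 genes tested, 2 fell and none rose in Nlrp3-/- M-MDSCs, where 7.10% of all 9986 tested genes were lower and 3.51% higher. The members' share was thus no larger than the background, and 13 (17.3%) had an unadjusted p under 0.05, against 30.1% of all tested genes. The median log2 CPM difference over the 77 genes was 0.07, beside 0.01 over all tested genes. The large subunit sum differed by 11.8% and the small subunit sum by 10.3%, with overlap between genotypes in both. These values moved with Nlrp3-/- M-MDSC replicates 1 and 3: as log2 ratios they were 0.16 and 0.14, 0.27 and 0.25 without replicate 1, and 0.081 and 0.056 without replicate 3.

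Mrpl1, whose bacterial homologue forms the mobile stalk beside the tRNA exit site, was 15.8, 16.4, 12.3 and 18.5 CPM in WT and 8.59, 8.34, 8.34 and 8.21 CPM in Nlrp3-/- M-MDSCs. All 4 knockout libraries were below all WT libraries and close to each other (log2 fold change -0.88 ± 0.22, FDR = 0.026). In G-MDSCs Mrpl1 was 9.33, 8.78, 6.77 and 16.7 CPM in WT and 18.9, 12.8, 12.4 and 8.91 CPM in Nlrp3-/- mice, which overlapped (log2 fold change 0.28, FDR = 0.62). Mrpl21, of bacterial type, was 13.9, 8.56, 10.2 and 18.5 CPM in WT and 6.04, 4.26, 5.84 and 2.44 CPM in Nlrp3-/- M-MDSCs, without overlap (log2 fold change -1.41 ± 0.35, FDR = 0.027). In G-MDSCs Mrpl21 was at 1.69 to 3.5 CPM in WT and 0 to 2.31 CPM in Nlrp3-/- mice and could not be tested between genotypes.

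These calls were not firm. No member passed when WT M-MDSC replicate 1, WT replicate 4 or Nlrp3-/- replicate 4 was left out, and 1 passed, Mrpl21, without WT replicate 2. Without Nlrp3-/- M-MDSC replicate 1, 8 members passed: Mrpl1, Mrpl9, Mrpl21, Mrpl32, Mrps31 and Mrps33 lower, and Mrpl37 and Mrps30 higher. That fit called more genes of every kind, 11.2% of 10157 lower and 6.37% higher. Corrected for GC and transcript length, Mrpl1 missed the threshold with a log2 fold change of -0.58.

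Mrps30 passed the FDR threshold but not the fold change minimum. It was 27.6, 28.1, 32.8 and 25.7 CPM in WT and 37.6, 39.8, 45.7 and 45.0 CPM in Nlrp3-/- M-MDSCs, every knockout library above every WT library (log2 fold change 0.58 ± 0.16, FDR = 0.038). Mrpl57 was the other gene whose knockout libraries all lay higher, and Mrps31 the other whose libraries all lay lower, neither of them past the test. Over all tested genes 7.59% lay higher and 11.7% lower without overlap. With library size, upper-quartile scaling or the GC and length correction Mrps30 passed both thresholds, with log2 fold changes of 0.68, 0.60 and 0.83.

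In G-MDSCs no member passed the test between genotypes, of 68 tested, where 11.7% of all 9273 tested genes were lower and 4.70% higher in Nlrp3-/- mice. At an unadjusted p under 0.05 there were 12 members (17.6%), against 32.3% of all tested genes. DESeq2 called 3 members, Mrpl22, Mrpl24 and Mrps35, all higher, where it called 6.44% of all tested genes higher and 12.8% lower. The median log2 CPM difference was 0.35 over the large and 0.09 over the small subunit genes, beside 0.10 over all tested genes. Corrected for GC and transcript length, the large subunit median was 0.099. Under that correction the median fitted log2 fold change was 0.13 over the members tested and 0.054 over all tested genes.

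The large subunit sum was higher in every Nlrp3-/- G-MDSC library than in any WT one, by 32.2%, from 1171 ± 108 to 1548 ± 92.0 CPM (SD, n = 4). The small subunit sum was 364 ± 34.8 and 423 ± 25.4 CPM, a difference of 16.2% with overlap. Without Mrpl33 the log2 ratio of the large subunit sum was 0.36, against 0.40 with it. In the same libraries the summed level of 10 dendritic cell and macrophage markers was 73.3 to 177 CPM in WT and 296 to 421 CPM in Nlrp3-/- G-MDSCs, and that of 7 proliferation genes was 130 to 453 CPM in WT and 63.4 to 200 CPM in Nlrp3-/- G-MDSCs. In M-MDSCs the first list was at 47.3 to 76.6 CPM in WT and 105 to 224 CPM in Nlrp3-/- mice, and the second at 162 to 554 and 68.7 to 146 CPM. The summed level of the 8 monocytic markers also differed, at 779 to 1122 CPM in WT and 1438 to 1547 CPM in Nlrp3-/- G-MDSCs, without overlap. Of the 6 monocytic markers that could be tested between genotypes in G-MDSCs, 1 rose and 1 fell. Of the 10 dendritic cell and macrophage markers 4 rose in each subset, with Xcr1 at 0 in all Nlrp3-/- G-MDSC libraries, and of the 7 proliferation genes 2 fell in each. The part of these other transcripts in the member values was not tested.

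Single genes behind the higher sum each stayed short of the call. Mrpl24, which lies at the mouth of the exit tunnel, was 69.0, 64.5, 74.5 and 52.5 CPM in WT and 84.4, 118, 101 and 108 CPM in Nlrp3-/- G-MDSCs. All knockout libraries were higher (log2 fold change 0.57 ± 0.17, FDR = 0.036), and the change was just under the fold minimum. Mrpl24 was named after its value was seen, and it was called under several other settings given below. In 8 genes (Mrpl2, Mrpl10, Mrpl17, Mrpl24, Mrpl44, Mrpl53, Mrps34 and Mrps35) all Nlrp3-/- libraries lay above all WT libraries, and in 1, Mrps15, all lay below. These are 11.8% and 1.47% of the 68 members tested, where 12.0% and 12.3% of all tested genes separated in these directions. A fit of all 16 libraries together, which estimates the spread from all 4 groups, called 8 members: Mrpl2, Mrpl17, Mrpl22, Mrpl24, Mrpl53, Mrps23 and Mrps35 higher and Mrpl38 lower, where it called 7.74% of all 10696 tested genes higher and 10.1% lower. Mrpl33 itself was 422 ± 105 CPM in WT and 589 ± 89.9 CPM in Nlrp3-/- G-MDSCs, and 187 ± 26.4 and 236 ± 37.9 CPM in M-MDSCs, and did not pass in either subset (log2 fold change 0.40 and 0.37, FDR = 0.17 in both).

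**Figure D5:**
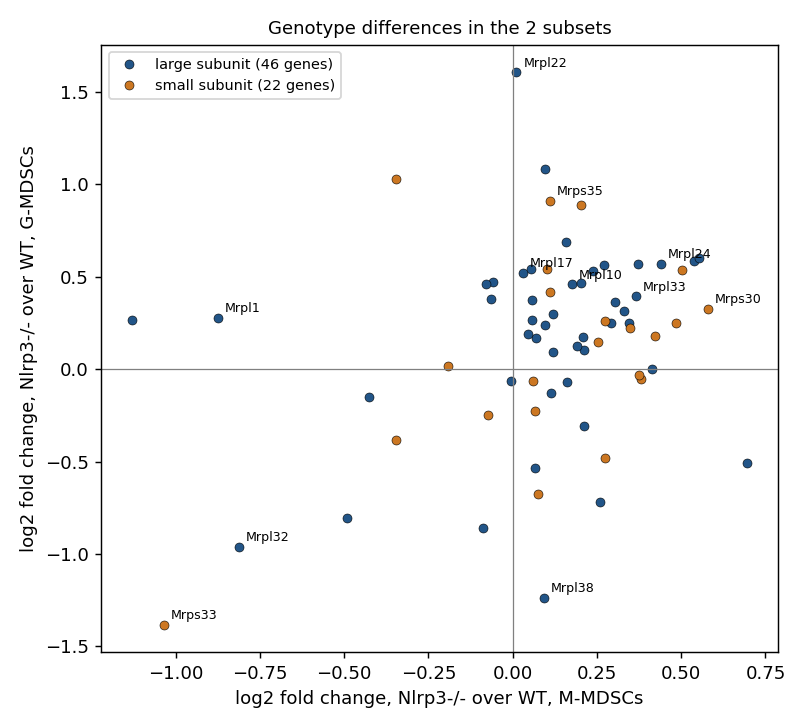
Log2 fold change of each gene in Nlrp3-/- over WT, in M-MDSCs (horizontal axis) and G-MDSCs (vertical axis), for the 68 genes tested in both, by subunit. Most points lie near 0 or to the upper right, Mrpl1 lies upper left, and Mrps33 lies lower left.

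No member was called for a genotype effect that differed between the subsets. The test called few genes of any kind, so this does not show that the effects were equal. Of 76 tested, 0 passed FDR in the test of the difference in edgeR's quasi-likelihood fit, where 0.0187% of 10696 genes passed with a larger and 0.00935% with a smaller value in G-MDSCs. At an unadjusted p under 0.05 there were 5, Mrpl1, Mrpl17, Mrpl22, Mrpl38 and Mrps35, and DESeq2 called 0. This fit leaves out that both subsets come from the same mice. With the mouse as a block, 9 members had an unadjusted p under 0.05 in the same test. The share of all tested genes at that unadjusted threshold was not determined, so the 5 names are a description only. Over the 68 genes tested for genotype in both subsets the log2 fold changes correlated with Pearson's r = 0.30 and 48 had the same sign, in libraries that come from the same mice. Neither value was determined over all tested genes.

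Other genes of mitochondrial translation were described from a list of 62. In WT mice 25 fell and 2 rose in G-MDSCs among the 54 tested, and in Nlrp3-/- mice 25 fell and 3 rose among 53. The shares that fell, 46.3% and 47.2%, compare with 27.1% and 27.4% of all tested genes. The summed level of the list was 795 to 866 CPM in WT M-MDSCs and 554 to 649 CPM in WT G-MDSCs. Of 6 ribosomal proteins with other names, 3 fell in WT. Ict1, the ribosome-bound hydrolase that frees stalled chains, fell from 42.6 ± 8.4 to 10.5 ± 2.2 CPM in WT (log2 fold change -2.01, FDR = 1.45e-05). Dap3, a GTP-binding protein of the small subunit, was 34.3 and 39.5 CPM and did not pass (log2 fold change 0.20, FDR = 0.35), and its sign turned with library size or upper-quartile scaling.

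Of 9 translation factors tested 5 fell in WT and 4 in Nlrp3-/- G-MDSCs. Tufm, the elongation factor that brings tRNAs, had too few reads for a test in WT. It was 7.54 ± 2.8 CPM in Nlrp3-/- M-MDSCs and 3.45 ± 2.0 CPM in Nlrp3-/- G-MDSCs (log2 fold change -1.25, FDR = 0.045), a call that was lost when Nlrp3-/- M-MDSC replicate 2, 3 or 4 or Nlrp3-/- G-MDSC replicate 1, 3 or 4 was left out. Of 15 synthetases tested 4 (26.7%) fell in each genotype, a share near that of all genes. Of 18 assembly factors tested 7 fell and 2 rose in WT. Tfam, which packs mitochondrial DNA and starts its transcription, fell from 25.3 ± 5.6 to 9.73 ± 2.5 CPM in WT (log2 fold change -1.37, FDR = 0.00063) and did not pass in Nlrp3-/- mice (-0.19, FDR = 0.69). The difference between genotypes did not pass for Tfam (FDR = 0.97).

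Between genotypes the list gave 1 higher and 1 lower gene of 58 tested in M-MDSCs (1.72% each), less than the 3.51% and 7.10% of all genes. Rbfa, a maturation factor of the small subunit, rose from 38.4 ± 1.4 to 64.1 ± 18.8 CPM (log2 fold change 0.75, FDR = 0.027). Mterf3, which regulates mitochondrial transcription and ribosome assembly, fell from 6.58 ± 1.2 to 2.45 ± 1.1 CPM (log2 fold change -1.42, FDR = 0.042). In G-MDSCs 1 of 44 tested (2.27%) rose and none fell, against 4.70% and 11.7% of all genes. Mtg2, a GTPase of large subunit assembly, rose from 9.39 ± 2.9 to 21.1 ± 5.0 CPM (log2 fold change 1.09, FDR = 0.026). Rbfa, Mterf3 and Mtg2 each missed the threshold when corrected for GC and transcript length, and when some single libraries were left out: any WT M-MDSC library but replicate 1 or Nlrp3-/- replicate 3 or 4 for Rbfa, any of the 8 but Nlrp3-/- M-MDSC replicate 1 for Mterf3, and WT replicate 3 or 4 or Nlrp3-/- replicate 2, 3 or 4 for Mtg2.

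Reads of a few members could mix with neighbours on the same strand. In the GENCODE annotation Mrpl53, Mrps24, Mrps34 and Mrps6 overlap other protein-coding genes on their own strand, namely Gm42688, Urgcp, Nme3, and both Slc5a3 and Gm49711, and their values are uncertain to that extent. The other overlaps, such as the head to head pair Mrpl46 and Mrps11, which share 413 bases, were on opposite strands. The median transcript length was 1316 bases over the 77 genes and 3102 bases over the genes tested between WT subsets, and the median GC content was 50.1% and 49.8%.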

How the data were processed

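The authors aligned single-end reads of stranded QuantSeq 3′ libraries, in which a transcript gives reads near its 3′ end, to mm10 with HISAT2 2.1.0 and counted them per gene by strand with HTSeq. The deposited files hold these raw counts, 1 file per sample, not normalized. Here edgeR 4.0.16 (R 4.3.3) was used with filterByExpr, TMM scaling and the quasi-likelihood F test, each comparison fitted on its 2 groups and the difference of genotype effects on all 16 libraries. P values were adjusted over all genes tested (Benjamini-Hochberg, given as FDR). The SE of a log2 fold change was derived from the F statistic. Log2 CPM used a prior count of 2. Log2 fold changes come from each fit. The pipeline was tested on simulated data. No pair of libraries of a group was identical. Subset libraries of a replicate number come from the same mouse per the labels, and their deviations correlated at 0.0069 to 0.41. Genotype pairs come from different mice (-0.43 to -0.0010).

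The genes described were the members called between genotypes, the at most 6 higher and 6 lower members with the smallest p among those called between WT subsets, genes chosen by role, members never tested, and of the pathway list the genes called between genotypes plus Tufm, Tfam and Dap3. Mrps2, Mrps15 and Mrpl24 were described after their values were seen. Members and lists were chosen with earlier results of these data known. Locations were taken from GENCODE M21. Alternatives were other scalings (DESeq2 1.42.0 size factors, upper quartile, library size), the DESeq2 test, no filter, a replicate block, a spline correction for GC content and length, a fit of all libraries, and leaving out each library. Ly6g was not analysed here.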

Additional observations from a re-analysis of the deposited data

How the results depend on the processing

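The lower level of members in G-MDSCs kept its direction, more members lower than higher, under every alternative run. The count called in WT mice (47) ranged from 43 with the GC and length correction to 70 with library size alone, 44 to 51 when 1 library was left out, and in Nlrp3-/- mice (48) from 46 to 64, and 44 to 48. Library size alone shifted all genes: 5061 of 9739 tested were lower and 1166 higher in WT, and 5034 and 1146 of 10071 in Nlrp3-/- mice. The GC and length correction called 2508 of 9739 lower and 2637 higher in WT. With the replicate block, which pairs subsets of 1 mouse, the counts were 54 and 51. No call changed among the genes followed singly under each alternative. These were Mrpl10, Mrpl11, Mrpl12, Mrpl28, Mrpl33, Mrpl35, Mrpl37, Mrpl42, Mrpl45, Mrps7, Mrps12, Mrps18a, Mrps30, Tufm and Dap3. Changes of call under the block were not followed for the other genes named above. Between genotypes the numbers pair different mice: the block gave 0 called members in M-MDSCs (2 without it), 0 with the block and the GC and length correction together, and 0 in G-MDSCs, where the block with that correction gave 1. The test of the difference between subsets called 0 under each alternative. Not every p was stable: in M-MDSCs the fit of all libraries called 1 member, and leaving out 1 library gave 0 to 8. In G-MDSCs the count of 0 became 1 with DESeq2 size factors, 5 with library size, 2 with upper-quartile scaling, 3 with the DESeq2 test, 1 without the filter, 3 with the GC and length correction, 8 with the fit of all libraries, 1 without the fold minimum, and 0 to 2 when 1 library was left out, 2 each without WT replicate 1, WT replicate 3 or Nlrp3-/- replicate 1. The same fits called many other genes: of all genes tested, library size called 8.55% higher and 9.21% lower, upper-quartile scaling 6.86% and 10.7%, the DESeq2 test 6.44% and 12.8%, and the fit of all libraries 7.74% and 10.1%.

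Sums and medians moved with the scaling. For G-MDSCs against M-MDSCs in WT, the log2 ratio of the large subunit sum, its median, the small subunit sum and its median were -1.08, -1.83, -1.47 and -1.69 with library size, and -0.53, -1.28, -0.92 and -1.14 with upper-quartile scaling. In Nlrp3-/- mice they were -0.93, -1.78, -1.48 and -1.88, and -0.34, -1.19, -0.89 and -1.29. With the GC and length correction the WT sums became -0.19 (large) and -0.54 (small), and in G-MDSCs between genotypes the large subunit median became 0.099 and the small subunit sum 0.080. Without Mrpl33 the large subunit sum was -0.79 in WT and -0.57 in Nlrp3-/- mice. Leaving out 1 library gave -0.24 to -0.023 for the large and -0.80 to -0.57 for the small subunit sum between Nlrp3-/- subsets, both extremes from Nlrp3-/- M-MDSC replicates 1 and 3, and -0.0013 to 0.23 for the small subunit median between genotypes in G-MDSCs. Dap3 changed sign between WT subsets with library size (-0.55) and upper-quartile scaling (-0.018), and between Nlrp3-/- subsets with library size (-0.51). Of the other single gene values under an alternative, 568 kept direction and side of the threshold, 63 lost the call and 14 gained it. The cause of these moves was not tested.

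A member at 1 CPM rests on a few counts per library, so small changes of such genes were not detectable at this depth.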
